A study of Mus musculus with 10 samples.

Results

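The kinesin motor family was described in mouse neuroretina. Its members were the genes of the deposited count table whose symbol names a kinesin motor (Kif followed by a number and at most 1 letter, or Kifc1, Kifc2 or Kifc3), a kinesin light chain (Klc1 to Klc4) or the kinesin-2 adaptor subunit Kifap3. They numbered 46 of 57186 genes in the table. Of these, 41 had a count in at least 1 library and 22 passed the low-count filter, among 11499 genes that did. The family was selected on a measured value, the p-value of Kif5a, which was among the smallest in the comparison of carbon nitride nanoparticles with saline. The values of members in that comparison are therefore given as a description. Calls from the fit over all genes are printed for it, and no support is drawn from them.

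The tissue came from female C57BL6/JRj mice. The CNP group (5 libraries) had received, by injection into the vitreous body that fills the eye, 1 µL of graphitic carbon nitride nanoparticles (hg-C3N4) at 1 mg/mL in phosphate-buffered saline. The PBS group (5 libraries) had received the same kind of injection of saline alone, so both groups had been injected. Neuroretinas were taken on day 14, and libraries were made from their polyadenylated RNA. The design text counts mice for the first group and eyes for the second, and whether each library is a separate animal is not stated, so p-values measure the spread between these libraries. Libraries are named by group and by the number in their labels.

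Kinesins are motors that burn ATP to step along microtubules, most of them toward the plus end. Conventional kinesin, kinesin-1, is built from a pair of heavy chains (KIF5A, KIF5B or KIF5C) that carry the motor and a pair of light chains (KLC) that hold cargo. Kinesin-2 drives intraflagellar transport in cilia, including the connecting cilium through which photoreceptors supply the outer segment, and kinesin-3 motors carry synaptic vesicle precursors along axons. Some of the other subfamilies act mainly in the mitotic spindle or shorten microtubules.

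Total counts ran from 3328518 to 5428697 per library. Rod markers summed to 40117 to 71252 CPM (the scaled count that a library of common size would hold) per library and Mueller glia markers to 2652 to 3787 CPM, and all 9 retinal ganglion cell markers examined had counts. Lens markers ran from 174 to 6677 CPM, and their part in the results was not tested. In bulk tissue, fewer cells of a type and less RNA per cell cannot be told apart. The 5 libraries numbered up to 10 (3 PBS, 2 CNP) and the 5 numbered above 10 (2 PBS, 3 CNP) stood apart from each other across many genes. Total counts were 4325794 to 5428697 up to number 10 and 3328518 to 4337612 above. The factors that scaled the libraries (TMM) were 1.027 to 1.098 and 0.848 to 0.973. Depth and scaling thus cannot be told apart from the division by number. What the number records is not in the labels, and results are therefore also given within or against that division.

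Transcripts of kinesin-1 made up most of the family. The 46 members summed to between 1436 and 1623 CPM per library. On the per-length scale (CPM per kilobase of exon), the 7 kinesin-1 genes held 72.1% of the family total, kinesin-2 14.0%, kinesin-3 4.87%, kinesin-4 2.72% and kinesin-14 2.58%. Without the division by length, kinesin-1 still held most of the family, at 62.7% of its CPM. The order of the next subfamilies changed, with kinesin-3 at 13.6% and kinesin-2 at 12.99% of family CPM, because Kif1b has 17608 bases of exon. Levels of different genes are compared per length below, and each tested pair of members that depended on the length is named. The libraries were made with barcoded primers, and whether reads span whole transcripts or only their ends was not established. If only ends were read, dividing by length would distort these levels. The values without length scaling would then be the ones to compare.

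**Figure D1:**
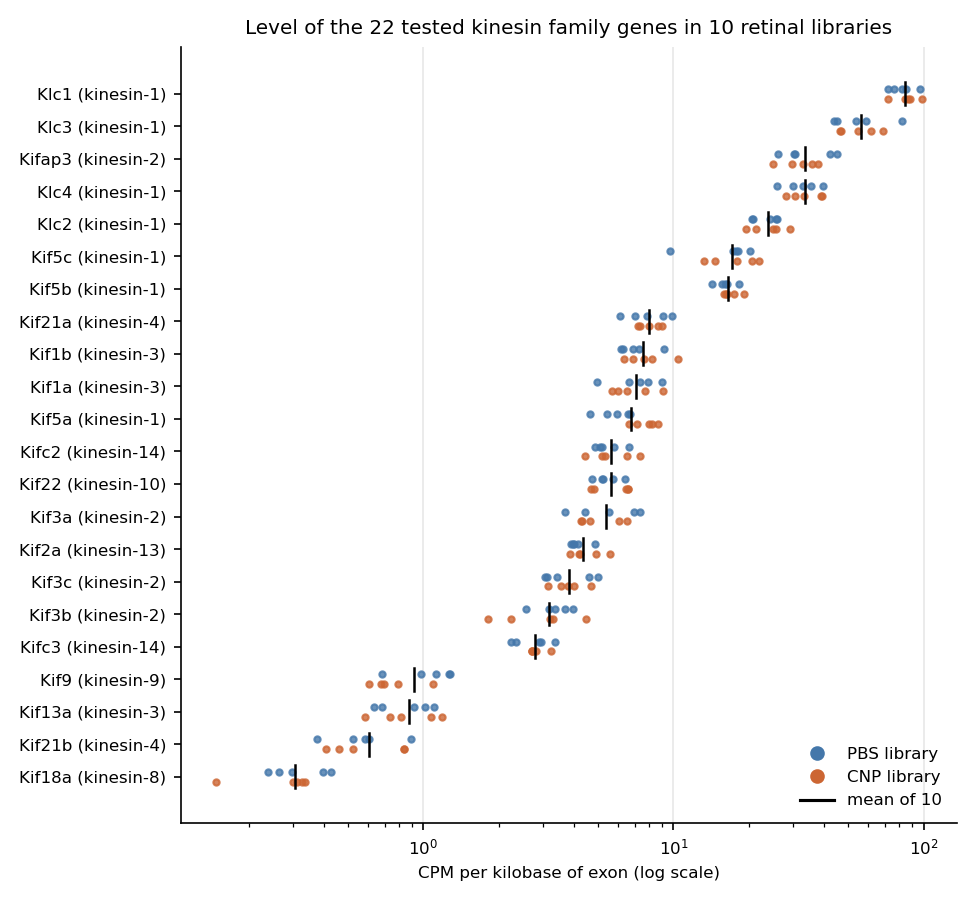
Level of the 22 tested members in each library, in CPM per kilobase of exon on a log axis, ordered by the mean of the 10 libraries (black bar). Points are single PBS (blue) or CNP (orange) libraries. The light chains Klc1 and Klc3 stand highest at 84.2 and 56.2, and Kif18a lowest at 0.305.

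Among the heavy chains, the broadly expressed Kif5b (ENSMUSG00000006740) and the neuron-enriched Kif5c (ENSMUSG00000026764) were at like levels, and the neuronal Kif5a (ENSMUSG00000074657) lay below both in every library. Per length, the levels over the 10 libraries were 17.2 ± 3.72 for Kif5c, 16.6 ± 1.41 for Kif5b and 6.79 ± 1.27 CPM per kilobase for Kif5a (SD, n = 10). Within libraries, Kif5b exceeded Kif5a 2.47-fold (log2 difference -1.304 for Kif5a minus Kif5b, SD 0.25, 10 of 10 libraries, exact paired permutation adjusted p = 0.00239, two-sided). Kif5c exceeded Kif5a 2.50-fold, also in 10 of 10 libraries (log2 difference -1.32, SD 0.34, exact paired permutation adjusted p = 0.00239). The unadjusted p of 0.00195 behind both is the smallest that 10 libraries allow, and the adjustment is over 11 pairs of members. Kif5b and Kif5c differed by -0.02 (log2 per length, Kif5b minus Kif5c, SD 0.28), with 4 libraries on one side and 6 on the other (exact paired permutation adjusted p = 0.830). The libraries' own differences ran from -0.32 to 0.56. Without length scaling the mean difference turned to 0.14 and with coding length to 0.13, and neither passed the test.

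Kif5b was the steadiest member, with a coefficient of variation of 8.50% over the 10 libraries. Its PBS libraries 2, 6, 10, 14 and 18 had 131, 125, 128, 114 and 145 CPM. Its CNP libraries 4, 8, 12, 16 and 20 had 127, 140, 153, 130 and 129 CPM. The groups overlapped, with PBS 14 the lowest library and CNP 12 the highest. Kif5c varied more. It had 145, 130, 124, 69.2 and 127 CPM in the PBS libraries and 128, 156, 147, 94.3 and 104 CPM in the CNP libraries, in the same order. PBS 14 was far below its companions, and CNP 16 was the lowest of the CNP group.

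Per kilobase of exon, each light chain had a higher mean level than any heavy chain. This depended on the length. With coding length, Klc4 (42.8) lay below Kif5b (45.8) and near Kif5c (42.7 CPM per kilobase). In CPM, Klc2 (98.5) and Klc4 (79.5) lay below Kif5b (132) and Kif5c (123). Klc1 (ENSMUSG00000021288), the light chain most studied in neurons, was the most abundant member at 84.2 ± 9.04 CPM per kilobase. Klc3 followed at 56.2 ± 12.2, Klc4 at 33.4 ± 4.84 and Klc2 at 23.8 ± 3.08 CPM per kilobase (SD, n = 10 each). Klc1 thus held 42.7% ± 3.801 of the light chain level, Klc3 28.3% ± 4.14, Klc4 16.9% ± 1.51 and Klc2 12.1% ± 1.75. From counts without length scaling the shares were 51.2% for Klc1, 22.2% for Klc3, 14.8% for Klc2 and 11.9% for Klc4. Klc2 thus lay above Klc4 on that scale, and also with coding length (53.0 against 42.8 CPM per kilobase). Klc1 exceeded Klc2 3.54-fold per length in 10 of 10 libraries (exact paired permutation adjusted p = 0.00239). In PBS 2, 6, 10, 14 and 18 Klc1 had 311, 394, 345, 335 and 294 CPM. In CNP 4, 8, 12, 16 and 20 it had 359, 351, 342, 400 and 294 CPM, so both groups spanned nearly the same range. Exons of Klc3 share 744 bases, 28.1% of its exon length, with Ercc2 on the opposite strand. Whether the counting used strand is not known from the sources at hand, so reads of the pair (6437 counts for Klc3 and 1027 for Ercc2) may not be cleanly divided.

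Kinesin-2 was represented by its trimer subunits. Kifap3 (ENSMUSG00000026585), the non-motor subunit that links the motor to its cargo, stood at 33.6 ± 6.67 CPM per kilobase. The motor subunits were lower at 5.37 ± 1.29 for Kif3a, 3.83 ± 0.702 for the neuronal partner Kif3c and 3.18 ± 0.800 for Kif3b, the partner in the ciliary trimer (SD, n = 10 each). Kifap3 exceeded Kif3a 6.28-fold per length in 10 of 10 libraries (exact paired permutation adjusted p = 0.00239). Kif3a was 1.70-fold above Kif3b per length in 10 of 10 libraries, but without length scaling the log2 difference was 0.11 (exact paired permutation adjusted p = 0.547) and with coding length 0.16 (0.408). Kif3a was 1.39-fold above Kif3c per length in 10 of 10 libraries, and the direction turned without length scaling (log2 difference -0.57) and with coding length (-0.44), both with adjusted p = 0.00239 in the exact paired permutation test. The order of Kif3a and Kif3c thus rests on the length used. Exons of Kif3c also share 2617 bases, 35.3% of their length, with the antisense gene 1110002L01Rik. Kif17, a kinesin-2 homodimer known from photoreceptor outer segments and dendrites, had 47 counts over all libraries and was not tested.

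Promoter windows are shown for Kif3a, Kif3c and Kifap3, because these kinesin-2 subunits were lower together in the libraries numbered above 10. Each is the 250 bases before the gene's start in RefSeq on build GRCm38.p6, plus strand, 5′ to 3′. Capitals mark matches on either strand to the GC box GGGCGG, the core of the NRF1 motif GCGCATGC, the cyclic AMP response element TGACGTCA, the TATA box TATAAA or the CCAAT box.
Kif3a, chr11:53567119-53567368: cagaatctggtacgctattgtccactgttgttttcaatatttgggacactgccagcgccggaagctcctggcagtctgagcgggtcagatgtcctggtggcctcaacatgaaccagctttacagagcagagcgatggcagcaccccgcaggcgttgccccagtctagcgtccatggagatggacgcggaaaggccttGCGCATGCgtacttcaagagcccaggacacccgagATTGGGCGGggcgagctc
Kif3c, chr12:3364882-3365131: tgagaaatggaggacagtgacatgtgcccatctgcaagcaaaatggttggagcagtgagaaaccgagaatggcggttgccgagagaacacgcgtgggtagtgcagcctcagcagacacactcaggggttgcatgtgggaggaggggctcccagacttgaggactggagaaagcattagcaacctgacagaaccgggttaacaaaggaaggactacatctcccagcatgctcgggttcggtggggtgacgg
Kifap3, chr1:163779333-163779582: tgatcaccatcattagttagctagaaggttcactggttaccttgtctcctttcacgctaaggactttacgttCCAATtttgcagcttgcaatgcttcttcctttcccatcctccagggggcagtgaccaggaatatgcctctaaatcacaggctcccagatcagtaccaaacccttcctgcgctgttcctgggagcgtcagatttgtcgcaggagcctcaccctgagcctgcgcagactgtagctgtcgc
The Kif3a window held 1 NRF1 core, 1 GC box and 1 CCAAT box, the last 2 overlapping by their shared GG. The Kifap3 window held 1 CCAAT box, and the Kif3c window held none of the motifs. GC content was 58.8% for Kif3a, 55.6% for Kif3c and 51.6% for Kifap3, with 15, 9 and 7 CpG dinucleotides. Of 32851 RefSeq windows, 32.7% held a GC box, 33.8% a CCAAT box, 12.4% a TATA box, 2.26% an NRF1 core and 1.55% the cyclic AMP response element. Among the 40 windows of 36 family members the shares were 60.0%, 47.5%, 12.5%, 5.0% and 7.5% in the same order. These are descriptions of letters, with no test.

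The axonal kinesin-3 motors Kif1a and Kif1b were present at like levels per length, at 7.08 ± 1.38 and 7.52 ± 1.39 CPM per kilobase (SD, n = 10). Their log2 difference was -0.09 for Kif1a minus Kif1b (exact paired permutation adjusted p = 0.541). It was -1.01 without length scaling and -0.99 with coding length (adjusted p = 0.00239 for each in the same test), so Kif1b was higher on those scales. KIF1A carries synaptic vesicle precursors, and KIF1B isoforms carry mitochondria or such precursors. Kif1b had 121, 128, 110, 108 and 162 CPM in PBS 2, 6, 10, 14 and 18. It had 121, 145, 135, 112 and 183 CPM in CNP 4, 8, 12, 16 and 20. PBS 18 and CNP 20 were the highest of their groups, and the groups overlapped. The relatives were scarce. Kif1a exceeded Kif1c, a motor of Golgi and vesicle traffic, 36.3-fold per length, and Kif13a exceeded Kif13b 5.86-fold, each in 10 of 10 libraries (exact paired permutation adjusted p = 0.00239), with only 59 counts for Kif1c and 84 for Kif13b in all. Without length scaling these folds were 46.5 and 3.64, and with coding length 28.9 and 3.85.

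Of kinesin-4, Kif21a, a growth inhibitor of microtubules at the cell cortex, dominated at 8.004 ± 1.14 CPM per kilobase (SD, n = 10). It exceeded its paralog Kif21b 13.5-fold per length in 10 of 10 libraries (exact paired permutation adjusted p = 0.00239). Without length scaling it exceeded Kif21b 7.19-fold, and with coding length 7.05-fold. Its PBS libraries 2, 6, 10, 14 and 18 had 58.7, 45.5, 50.8, 39.4 and 63.8 CPM. Its CNP libraries 4, 8, 12, 16 and 20 had 56.0, 51.8, 46.7, 47.4 and 58.2 CPM, all within the PBS range. Kif7, the ciliary regulator of Hedgehog signalling, had 41 counts in all, its relative Kif27 10 and the chromokinesin Kif4 33.

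The minus-end directed kinesin-14 motors Kifc2, known from neurons, and Kifc3 stood at 5.64 ± 0.924 and 2.80 ± 0.345 CPM per kilobase (SD, n = 10). In PBS 2, 6, 10, 14 and 18 Kifc2 had 19.96, 20.3, 22.8, 26.2 and 19.1 CPM. In CNP 4, 8, 12, 16 and 20 it had 17.5, 21.0, 20.4, 25.6 and 29.0 CPM, which overlapped with PBS on both sides. The microtubule depolymerase Kif2a (kinesin-13) was at 4.36 ± 0.571 CPM per kilobase and shares 19.2% of its exon length with Dimt1. Kif2a had 24.8, 25.3, 26.5, 25.6 and 31.1 CPM in the PBS libraries and 24.6, 26.8, 35.7, 27.0 and 31.4 CPM in the CNP libraries, in order of number. The highest value of each group, PBS 18 and CNP 12, belonged to a library numbered above 10.

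Motors of cell division were few. Of 12 listed mitotic kinesins, 10 had counts and 2 were tested, the chromokinesin Kif22 at 5.64 ± 0.801 and the chromosome alignment motor Kif18a at 0.305 ± 0.0785 CPM per kilobase (SD, n = 10). Kif22 had 25.3, 23.3, 25.6, 28.0 and 31.4 CPM in PBS 2, 6, 10, 14 and 18 and 23.6, 23.0, 32.4, 31.5 and 32.2 CPM in CNP 4, 8, 12, 16 and 20. Kif18a had 2.35, 2.93, 2.61, 4.21 and 3.89 CPM in PBS and 1.45, 3.20, 3.296, 3.08 and 2.97 CPM in CNP in the same order. Per length, Kif22 was thus near Kif3a (5.37 CPM per kilobase), and without length scaling it lay above (27.6 against 19.3 CPM). Kif11, the spindle motor Eg5, had 21 counts over all libraries. Markers of dividing cells were near 0: Mki67 had no count, Top2a and Bub1 1 each, Aurkb 3, Ccnb1 12, Ccna2 30 and Cdk1 43. Their sum was 0.8 to 4.7 CPM per library. Kif20a (39 counts) shares 29.3% of its exon length with Cdc23, which had 4051 counts, and Kif4 15.1% with Pdzd11 (2088 counts). Kifc1 had 11 counts and its near-identical copy Kifc5b 28, which counting can split.

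Kif9, a kinesin-9 of motile cilia and sperm tails, was low but present at 0.919 ± 0.259 CPM per kilobase (SD, n = 10). Its values were 4.19, 2.93, 5.43, 4.81 and 5.51 CPM in PBS 2, 6, 10, 14 and 18. They were 2.91, 3.40, 2.996, 2.61 and 4.70 CPM in CNP 4, 8, 12, 16 and 20, so that the groups overlapped. The motile cilium markers Foxj1, Dnaic1, Rsph1 and Dnah5 had 98, 136, 22 and 1 counts in all. The remaining untested members had 103 counts (Kif16b), 78 (Kif19a), 52 (Kif26a), 20 (Kif26b), 13 (Kif20b), 9 (Kif24), 8 (Kif14), 4 (Kif6), 3 (Kif2c) and 2 (Kif23). Kif12, Kif15, Kif18b, Kif28 and Kif2b had none in 10 libraries, which allows each up to 0.0677 CPM (3 counts of the summed total, counting error only).

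Kif5a was the member with the smallest p between CNP and PBS, which is why the family was picked. It had 41.4, 37.9, 45.8, 32.5 and 46.7 CPM in PBS 2, 6, 10, 14 and 18. It had 56.0, 60.6, 46.4, 49.8 and 57.4 CPM in CNP 4, 8, 12, 16 and 20. All CNP libraries lay above the PBS mean, and the groups overlapped through CNP 12 alone, which lay just under PBS 18. The means were 40.9 ± 5.86 in PBS and 54.0 ± 5.79 CPM in CNP (SD, n = 5 each), a log2 fold change of 0.41 (SE 0.12, 95% interval 0.15 to 0.66). Since the family was chosen on this contrast, the interval is no test. Its unadjusted p was in place 6 of 11499 genes. As the log2 ratio of group means, the difference was 0.48 in the 5 libraries with numbers up to 10 and 0.37 in the 5 with higher numbers. The sum of 9 ganglion cell markers, neurons with long axons, ran from 1394 to 1772 CPM in PBS and from 1349 to 2090 CPM in CNP, and 6 of the 8 tested had a log2 fold change above 0 (median 0.08). Its part in the Kif5a difference was not tested.

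No gene tested passed an adjusted p under 0.05 between the treatments, and so no member did. Of 22 members, edgeR's quasi-likelihood test called 0 at an adjusted p under 0.05, where the background over all 11499 genes was 0 (0%). At an unadjusted p under 0.05 there was 1 member, Kif5a, against 137 genes (1.19%), from which nothing is read because the contrast chose the family. DESeq2 called 0 members and 0 genes (146 genes unadjusted), and limma-voom 0 and 0 (142). The groups overlapped for 22 of 22 members (for 0.287% of all genes they did not). The log2 fold change was above 0 for 13 of 22 members (48.8% of all genes), and the members' median was 0.04 against -0.004 for all genes. The 95% interval lay within 2-fold in either direction for 22 of 22 members (94.2% of all genes). The intervals that reached farthest below 0 were those of Kif9 (-0.94) and Kif18a (-0.75).

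**Figure D2:**
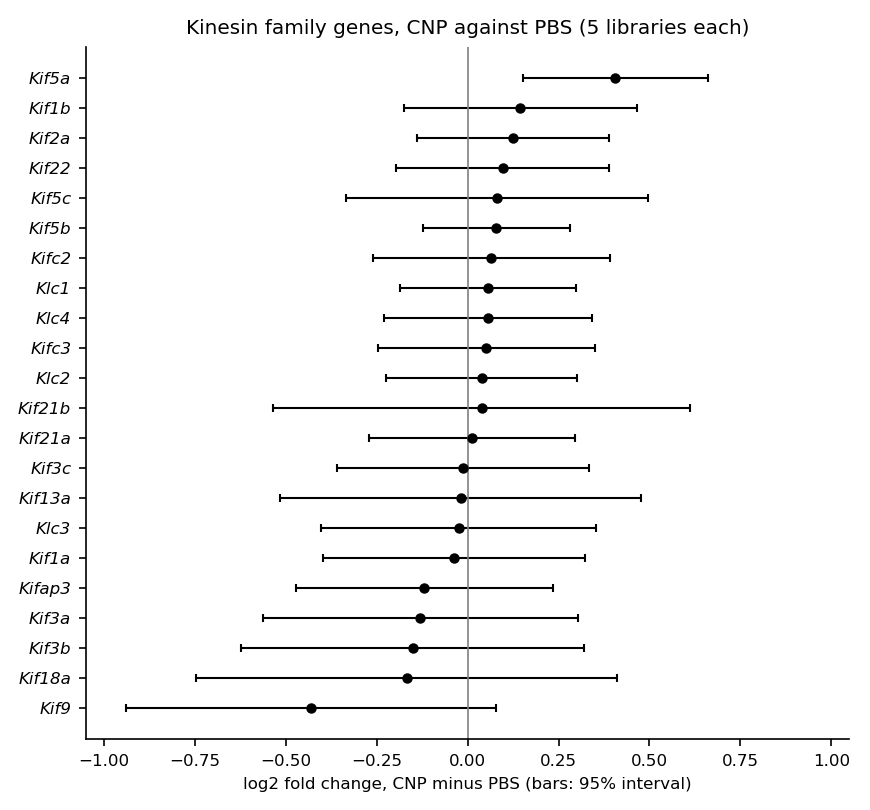
Log2 fold change of each tested member, CNP minus PBS, with 95% intervals from edgeR (5 libraries per group). Kif5a at 0.41 is the point farthest above 0 and Kif9 at -0.43 the farthest below.

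After Kif5a, the most positive log2 fold changes were small. They were 0.15 for Kif1b (95% interval -0.18 to 0.47), 0.12 for Kif2a (-0.14 to 0.39), 0.10 for Kif22 (-0.20 to 0.39) and 0.08 for Kif5c (-0.33 to 0.50). Kif5b, the other heavy chain, had 0.08 (-0.12 to 0.28) and Klc1 0.06 (-0.18 to 0.30). The most negative values belonged to Kif9 at -0.43 (-0.94 to 0.08), Kif18a at -0.17 (-0.75 to 0.41), Kif3b at -0.15 (-0.62 to 0.32), Kif3a at -0.13 (-0.56 to 0.30) and Kifap3 at -0.12 (-0.47 to 0.23). Of kinesin-1, 6 of 7 log2 fold changes were above 0, Kif5a among them, and of kinesin-2, 4 of 4 were below. Of all genes, 48.8% were above 0. Nothing is read from these counts, because the contrast chose the family. Each of the intervals in this paragraph included 0. As log2 ratios of group means up to number 10, Kif3a, Kifap3, Kif3c and Kif3b had -0.07, -0.10, -0.002 and -0.16. Above number 10 they had 0.11, 0.05, 0.17 and -0.26. The sign of Kif5c turned without PBS 14 (-0.06) or without CNP 8 (-0.003), that of Kif18a without CNP 4 (0.02) and that of Kif3a with library number as a covariate (0.003).

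Within the heavy chains, Kif5a made up a larger share in most CNP libraries. Per length it held 13.9%, 13.8%, 16.4%, 16.2% and 15.6% of the summed heavy chain level in PBS 2, 6, 10, 14 and 18. In CNP 4, 8, 12, 16 and 20 it held 19.2%, 18.02%, 14.3%, 19.4% and 21.1%. CNP 12 was again the library inside the PBS range. The means were 15.2% ± 1.26 in PBS and 18.4% ± 2.54 in CNP, beside 42.2% ± 4.57 and 40.3% ± 3.16 for Kif5b and 42.6% ± 5.42 and 41.3% ± 4.23 for Kif5c (SD, n = 5 each). From counts without length scaling, Kif5a had 14.2% and 17.3%. These shares use the values that chose the family and carry no test.

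**Figure D3:**
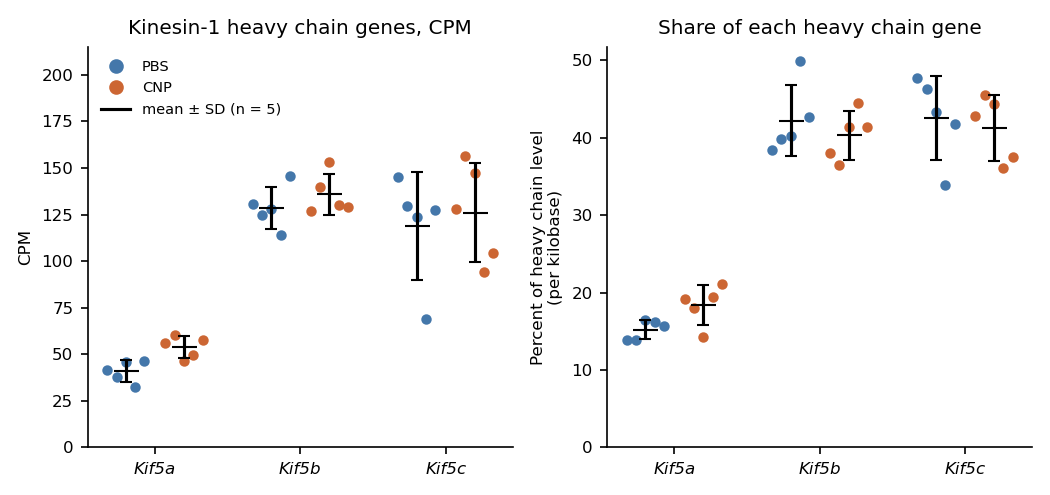
Kinesin-1 heavy chain genes in PBS (blue) and CNP (orange) libraries, as CPM (left) and as percent of the summed heavy chain level per kilobase (right), with the mean and SD of 5 libraries. Kif5a lies under the other heavy chains in each library, with means of 40.9 and 54.0 CPM, and PBS 14 is the low Kif5c point at 69.2 CPM.

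The division of the libraries by number is a contrast that did not choose the family. It was known from earlier results of these data to separate many genes, so its calls describe these libraries and not a labelled condition. With treatment as a covariate, edgeR's quasi-likelihood test called 7 of 22 members (31.8%), beside 3568 of 11499 genes (31.0%), so the family was called about as often as genes at large. Of the 7, 3 were higher above number 10 (14.4% of all genes were) and 4 lower (16.7%). The lower ones were Kif3a, Kifap3, Kif3c and Kif1a. Kif3a had 25.0, 23.3, 26.4, 21.8 and 19.8 CPM in libraries 2, 4, 6, 8 and 10 and 15.3, 13.2, 15.4, 15.9 and 16.6 CPM in 12, 14, 16, 18 and 20. The sets did not overlap (20.6% of all genes did not), and its log2 difference was -0.61 (SE 0.12, edgeR adjusted p = 0.00207). Kifap3 went from 154 ± 22.7 to 116 ± 12.97 CPM (log2 difference -0.41, edgeR adjusted p = 0.0136), Kif3c from 32.1 ± 4.60 to 24.7 ± 2.31 (-0.40, 0.0218) and Kif1a from 75.3 ± 9.57 to 56.8 ± 8.42 (-0.42, 0.0139; SD, n = 5 each). Kif3b, the other kinesin-2 subunit tested, had 0.28 and did not pass (edgeR adjusted p = 0.304).

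The higher genes above number 10 were Klc3, Klc4 and Kif22. Klc3 had 116, 123, 120, 123 and 142 CPM in libraries 2, 4, 6, 8 and 10 and 163, 217, 183, 156 and 145 CPM in 12, 14, 16, 18 and 20. These sets did not overlap, and the log2 difference was 0.49 (SE 0.10, edgeR adjusted p = 0.0031). Kif22, whose sets also did not overlap, went from 24.2 ± 1.22 to 31.1 ± 1.79 CPM (0.36, edgeR adjusted p = 0.0099). Klc4 went from 71.4 ± 8.46 to 87.6 ± 8.03 CPM (0.30, edgeR adjusted p = 0.0345; SD, n = 5 each). The heavy chains did not pass, with -0.37 for Kif5c (edgeR adjusted p = 0.0825), -0.13 for Kif5a (0.363) and 0.03 for Kif5b (0.824).

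Markers of some cell types moved with the same division. Rod markers (5 of 5 with counts) summed to 40117 to 46976 CPM up to number 10 and 53052 to 71252 above, pigment epithelium markers (5 of 5) to 437 to 1175 and 1328 to 2297, and amacrine markers (4 of 4) to 424 to 715 and 240 to 355. Sums of Mueller glia markers overlapped (3167 to 3787 and 2652 to 3669 CPM), with 2 of 5 called lower (16.7% of all genes were). Bipolar sums overlapped too (1094 to 1269 and 914 to 1366 CPM), with 3 of 4 called lower. Of the tested lens (3), microglia (3), endothelium (3) and motile cilium (1) markers, 0 were called, beside 31.0% of all genes called in either direction. Of 8 tested ganglion cell markers, 7 were called lower above number 10 by edgeR (87.5%, beside 16.7% of all genes), with a median log2 difference of -0.80 over the 8. Their sum over all 9 overlapped, at 1535 to 2090 and 1349 to 1819 CPM. The most abundant of them, the neurofilament gene Nefl, was not called and had a log2 difference of 0.17. Their part in the kinesin differences was not tested. Without PBS 14 the calls fell to 3 members and 2317 genes, and the calls of Kifap3, Kif1a, Kif3c and Klc4 were lost (edgeR adjusted p = 0.0618, 0.066, 0.0696 and 0.122). Scaled by library totals only, which shifts the median of all genes by -0.21, higher genes were 14.5% of those called in place of 46.3%. On that scale 9 members were called, 1 higher and 8 lower, and Klc4 (log2 difference 0.08) and Kif22 (0.15) did not pass.

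**Figure D4:**
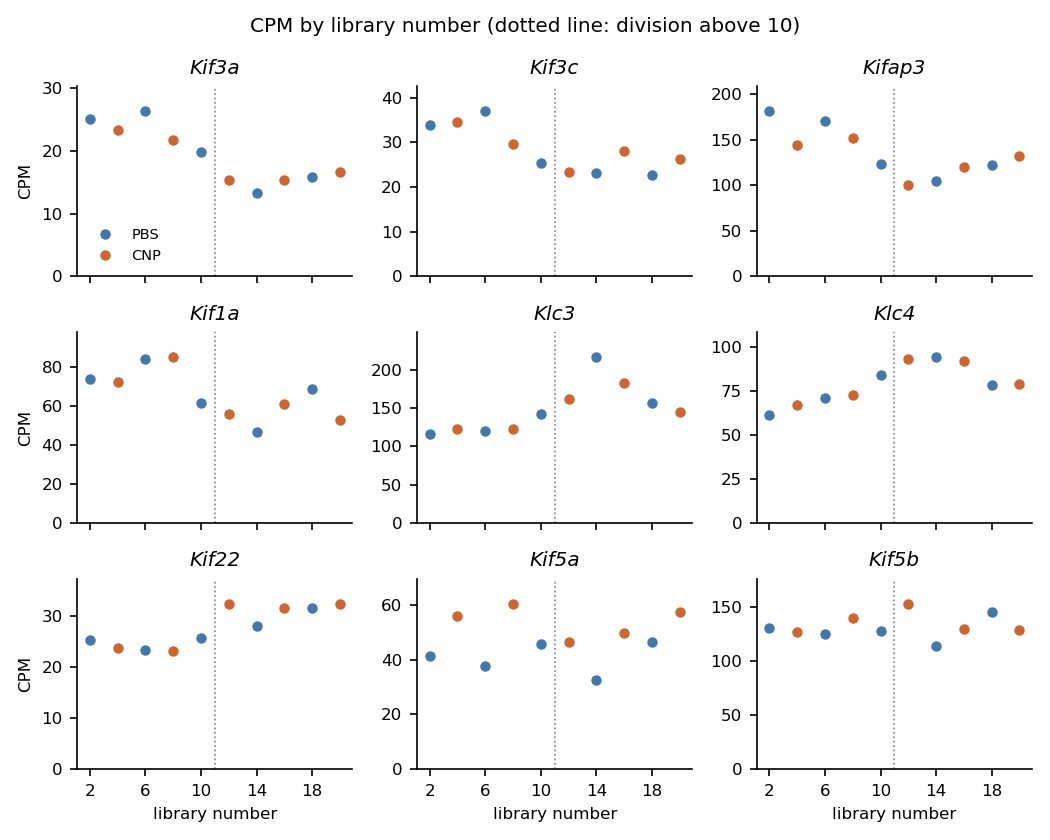
CPM of the 7 members called for library number, and of Kif5a and Kif5b, in each library against its number, with a dotted line at the division above 10. PBS libraries are blue and CNP libraries orange. Kif3a, Klc3 and Kif22 are separated by the line, whereas Kif5a separates by colour except for CNP 12.

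The partners of kinesins were described from lists of transport genes. For treatment, edgeR called 0 of 26 tested dynein and dynactin genes, 0 of 22 cargo adaptors and activators, 0 of 11 tubulins, 0 of 13 microtubule-associated proteins and 0 of 9 unconventional myosins (background 0%). At an unadjusted p under 0.05 there were also 0 in each list. Dynein is the motor toward the minus end. Its light chain genes Dynlrb1 and Dynll1 had log2 fold changes of 0.00 and -0.03, and the heavy chain Dync1h1 had 0.30 (95% interval -0.04 to 0.65). The mitochondrial adaptor Rhot1 had 0.06, the kinesin-1 activator Map7 -0.03 and the scaffold Mapk8ip3 -0.20. Tubulins, the subunits of the track, had 10 of 11 values below 0, beside 5886 of 11499 genes. Their median was -0.08 against -0.004 for all genes, with Tubb5 at -0.20 (95% interval -0.56 to 0.15) and Tuba1a at -0.08. Within the division by library number the signs of tubulins were mixed. As log2 ratios of group means up to number 10, Tubb5, Tuba1a, Tubb3 and Tubb4a had 0.01, 0.06, 0.01 and -0.13. Above number 10 they had -0.34, -0.17, 0.29 and 0.47. Of the microtubule-associated proteins, Map1b had 0.03, Mapre3 -0.03 and Map1a 0.34 (95% interval -0.12 to 0.79). Of the myosins, motors on actin, Myo6 had 0.18.

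For library number, tubulins and microtubule-associated proteins were lower above 10 in 7 of 11 (63.6%) and 7 of 13 (53.8%) genes tested, and higher in 0 of either, beside 31.0% of all genes called. Tubb4a, a tubulin of the nervous system, went from 218 ± 40.1 to 102 ± 22.1 CPM (log2 difference -1.15, edgeR adjusted p = 0.000409), and the neuronal Tubb3 from 228 ± 28.9 to 141 ± 20.3 CPM (-0.74; SD, n = 5 each). The adaptors were mixed, with 3 higher and 7 lower of 22 (45.5%). Rhot1 was among the higher at 0.41, and the calsyntenin Clstn3 and Sybu, which links kinesin-1 to syntaxin cargo, among the lower at -0.82 and -0.85. Dynein and dynactin had 4 higher and 4 lower of 26 (30.8%), and myosins 0 and 2 of 9 (22.2%).

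**Figure D5:**
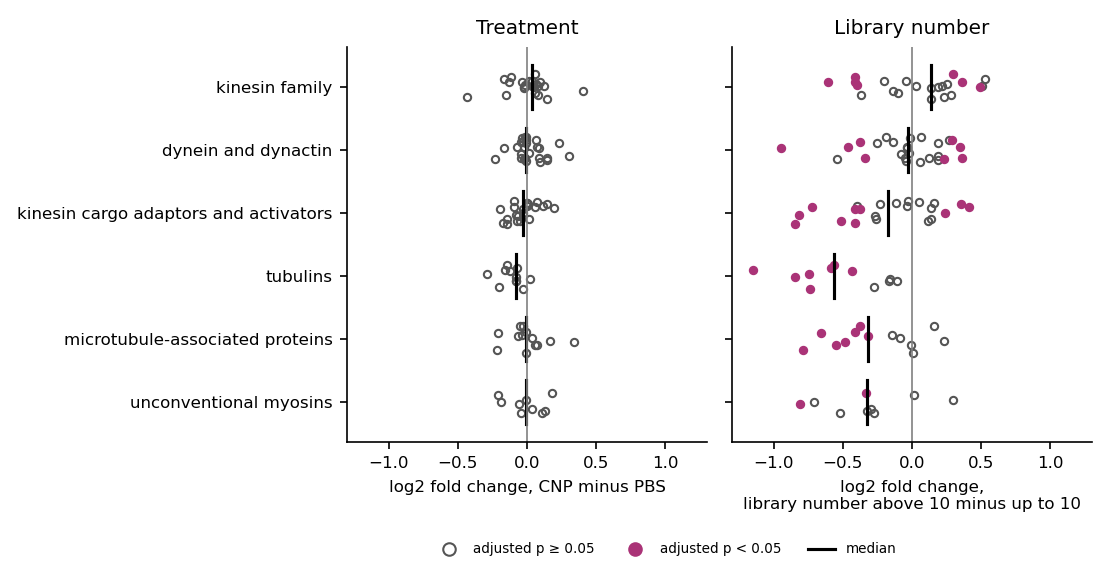
Log2 fold change of each tested gene of the kinesin family and of 5 transport lists, for CNP minus PBS (left) and for library number above 10 minus up to 10 (right). Filled points passed an adjusted p under 0.05 in edgeR, and black bars are medians. No point is filled on the left, and tubulins have the lowest median on the right at -0.56.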

How the data were processed

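Polyadenylated RNA was copied into cDNA with UMI-bearing barcoded primers, amplified, and read on a NovaSeq X Plus instrument, per the labels' protocols. STAR, STARsolo and build GRCm39 are named, per the submitters' processing notes. Versions, annotation, strand use and whether UMIs were collapsed: not given in the sources used here. Uncollapsed UMIs would understate counting error, and reads drawn from transcript ends would distort the per-length scale. The authors deposited raw counts per Ensembl gene for 10 libraries (5 PBS, 5 CNP), with totals of 3328518 to 5428697 counts, grouped by the treatment label. Of 57186 IDs, 51880 matched a symbol. The 20 pairs of libraries within groups differed beyond counting noise (chi-square per degree of freedom 3.99 to 32.6).

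Counts were filtered with filterByExpr (minimum count 10, minimum total 15), scaled by TMM and fitted in edgeR 4.0.16 (R 4.3.3). Its two-sided quasi-likelihood test was adjusted by Benjamini-Hochberg over 11499 genes, with a threshold of 0.05. CPM is TMM-scaled. Exon and coding lengths are from GENCODE M21 on GRCm38, and promoter windows from RefSeq on GRCm38.p6, so no coordinates of counted reads are given. Differences in level between 11 pairs of members used log2(CPM per kilobase) with a pseudocount of 0.1 CPM and an exact paired permutation test over 10 libraries. Self-tests on simulated counts were run. Alternatives were DESeq2 1.42.0, limma 3.58.1 voom, other scalings, no filter, library number as a term, other lengths and each library left out. For library number, limma-voom, upper-quartile scaling, library totals and no filter were added after seeing the data.

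The members, gene lists, pairs and the division by library number were chosen with earlier results of these data known. Named genes are the Kif5 heavy chains, the leading light chain, the highest member of each tested subfamily, Kifap3, the 5 tested members with the most positive and the 5 with the most negative treatment fold change, untested members by counts, and per transport list the 2 most abundant genes and the one with the smallest p. Members called for library number, the other light chains, pair members, Tubb4a, Tubb3, Clstn3, Sybu and genes with overlapping exons were named after their values were seen. Some single genes that this rule names are not reported here.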

Additional observations from a re-analysis of the deposited data

Results flagged for a closer look

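In 50 sets of 5 libraries (each tested member, and the heavy chain shares, by treatment group), 4 held 1 library whose gap to the others exceeded Dixon's limit. Chance alone gives about 1 in 20 sets. Kif5c in PBS 14 was at 69.2 CPM, below the 124 to 145 CPM of the other PBS libraries. Kif2a in PBS 18 was at 31.1 CPM, above 24.8 to 26.5 CPM. Kifc3 in CNP 12 was at 17.1 CPM, above 14.4 to 14.9 CPM. Kif18a in CNP 4 was at 1.45 CPM, below 2.97 to 3.296 CPM. Without PBS 14 the log2 fold change of Kif5c was -0.06 in place of 0.08, and without CNP 4 that of Kif18a was 0.02 in place of -0.17.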

How the results depend on the processing

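For CNP against PBS, all 17 alternatives called 0 genes and 0 members, with 105 to 422 genes at an unadjusted p under 0.05. The log2 fold change of Kif5a ran from 0.34 (without PBS 14) to 0.45. For library number, 16 alternatives called 2317 to 4411 genes. Leaving out 1 library at a time gave 2317 to 3867 genes and 3 to 9 members, with the low end of both (2317 and 3) without PBS 14. Of 112 single-gene values under these alternatives, 94 kept their call and 18 lost it, none with a change of direction. Klc4 lost its call under library totals only (0.559), without the filter (0.0591) and without CNP 4, 8, 12 or 16 or PBS 2 or 14. Kif3c lost it without CNP 4 or 12 or PBS 2, 6, 14 or 18, Kif1a without CNP 8 or PBS 14, Kifap3 without PBS 14 and Kif22 under library totals only (edgeR adjusted p = 0.304). For the level pairs, Kif5b minus Kif5c changed sign without length scaling (0.14), with coding length (0.13), and without PBS 2, PBS 6 or CNP 8, with leave-one-out values from -0.084 to 0.014. Kif3a minus Kif3c turned to -0.57 and -0.44 under the same 2 length settings. Kif3a minus Kif3b lost its call (0.11 and 0.16), and Kif1a minus Kif1b gained one (-1.01 and -0.99). The length settings change only the divisor, and the cause of the other changes was not tested. With PBS or CNP libraries alone, 5 values cannot pass the exact test. No paired analysis was possible because PBS and CNP libraries share no number in the labels. Depth limits the scarce members: 19 of the 41 with counts were not tested.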
